A study of Mus musculus with 78 samples.

Results

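PV cells are adult mouse retinal cells that carry a fluorescent label through Cre recombinase expressed from the parvalbumin (Pvalb) promoter. They were compared with 4 amacrine cell lines that have the same batch label, batch 1. The comparison rests on 15 of the 78 arrays of the series: 3 PV arrays and 12 amacrine arrays, 3 each of the lines Arc 1st, ChAT, Fam81a and Ier5. The arrays were chosen by their titles and batch label, with no measured value used. All 19446 probe sets that carry 1 gene symbol, of 22347 probe sets in all, were taken as members. Of these, 11945 were bright enough to be tested, with the mean of at least 1 of the 5 lines above 9.01, the median intensity of the whole table. The other 7501 were dim in all 5 lines and are not described as changed or unchanged.

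The PV mice were 129SVCB6(PV-CRE#32)SA-09 crossed with ThyStopY, in which Cre allows a Thy1-driven reporter to be expressed, and their cells were sorted by green fluorescence. The amacrine cells came from Tg(Arc-EGFP)194Gsat/Mmcd, from the cross of 129S6-Chat_tm1(cre)Lowl/J with Rosa26-LSL-RFP, from Tg(6430514L14Rik-EGFP)95Gsat (titled Fam81a) and from Tg(Ier5-EGFP)267Gsat. ChAT cells were sorted by red fluorescence and the other 3 lines by green. Every array was made from 200 sorted adult cells after a papain dissociation of 15 min. The labels call the 3 arrays of a line biological replicates and do not say whether they came from different animals. Mice obtained from a repository of FVB/N-Swiss Webster hybrids, which carry a recessive photoreceptor degeneration mutation, were backcrossed into C57BL/6J and used in the F2 generation, whereas the others were already in C57BL/6J. The labels do not list which line is which in this respect. PV cells are thus represented by 1 line, and promoter, reporter and genetic background cannot be told apart from cell class in any value below. Arrays of the PV line correlated with each other at r = 0.955 to 0.956 across probe sets, and those of the Ier5 line, the lowest of the 5, at 0.911 to 0.914.

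Retinal ganglion cells are the only neurons that send axons from the retina to the brain, and they release glutamate from those axons. Amacrine cells are interneurons of the inner retina, most of which release GABA or glycine and many of which have no axon. Parvalbumin is a calcium-buffering protein that in the mouse retina marks several types of ganglion cell.

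The 3 genes taken as markers of PV ganglion cells were high on all PV arrays and low on all amacrine arrays. Intensities are RMA values on a linear scale, differences are PV minus the mean of the 4 amacrine lines on the log2 scale, and ± is the standard error of the limma fit (3 PV and 12 amacrine arrays). Sncg, which encodes gamma-synuclein, a protein of ganglion cell bodies and axons, read 1393, 1121 and 973 on the PV arrays, against 11.1 to 22.6 on the amacrine arrays (median 17.3). Its difference was 6.07 ± 0.22 (limma adjusted p = 2.2e-10). Rbpms, an RNA-binding protein found in nearly all ganglion cells, read 126, 143 and 142 on the PV arrays and 7.39 to 10.7 on the amacrine arrays (median 7.77). It differed by 4.02 ± 0.12 (limma adjusted p = 5.5e-11). Pvalb read 608, 580 and 424 on the PV arrays and 6.53 to 42.7 on the amacrine arrays (median 10.3), with a difference of 5.31 ± 0.20 (limma adjusted p = 2.2e-10). The ChAT arrays held the 3 highest amacrine values of Pvalb, 36.9, 40.6 and 42.7. Since the Pvalb promoter chose the cells, its high level is a check of the label.

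**Figure D1:**
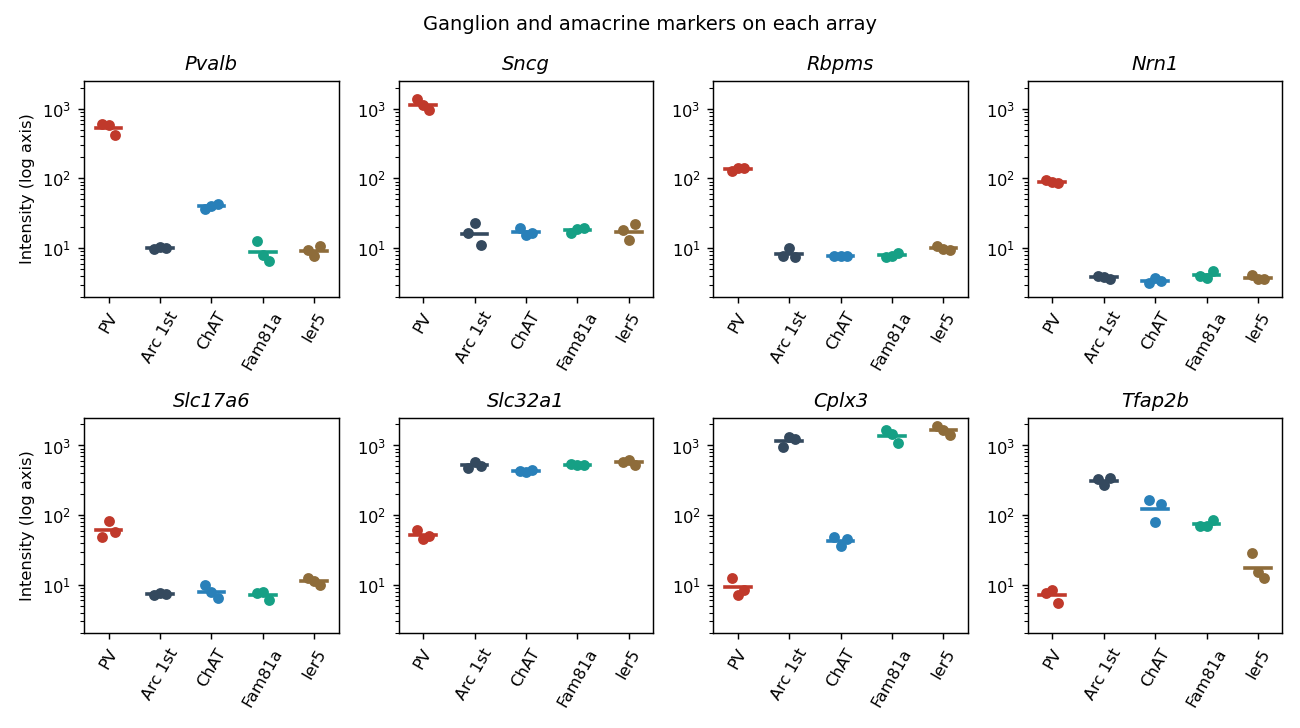
Intensity of 8 genes on each of the 15 arrays (vertical log axis; points are arrays, bars are geometric means of 3 arrays; PV, Arc 1st, ChAT, Fam81a and Ier5 from left to right). Sncg, Rbpms and Nrn1 are low in all 4 amacrine lines, Slc32a1 is high in all 4, and Cplx3 and Tfap2b differ among the amacrine lines.

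The upstream sequences of 4 genes are given from RefSeq (GRCm38.p6) as examples of both directions, 250 bases before the start site and 5′ to 3′ on the gene's strand. Sncg and Pvalb, a pair of the PV ganglion cell markers above, were higher in PV cells, and Cplx3 and Slc32a1, a complexin and a vesicular transporter described below, were lower. Capitals mark TAAT on either strand (TAAT or ATTA), the core bound by many homeodomain proteins, a family that includes Pou4f1, Isl1 and Isl2 described below. Overlapping matches were counted. All 4 genes were found in the promoter table, and Pvalb has more than 1 start listed there, of which the first is shown.
Sncg, chr14:34374670-34374919, minus strand: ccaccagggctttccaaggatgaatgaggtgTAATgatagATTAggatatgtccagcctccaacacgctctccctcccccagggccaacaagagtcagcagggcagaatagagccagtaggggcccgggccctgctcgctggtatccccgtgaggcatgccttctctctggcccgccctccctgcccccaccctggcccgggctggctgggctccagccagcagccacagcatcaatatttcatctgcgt
Pvalb, chr15:78206401-78206650, minus strand: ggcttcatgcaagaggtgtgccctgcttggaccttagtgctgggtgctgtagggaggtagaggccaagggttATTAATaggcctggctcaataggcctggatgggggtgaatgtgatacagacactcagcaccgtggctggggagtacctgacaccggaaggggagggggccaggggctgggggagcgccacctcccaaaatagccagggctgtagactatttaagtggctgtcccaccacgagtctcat
Cplx3, chr9:57606282-57606531, minus strand: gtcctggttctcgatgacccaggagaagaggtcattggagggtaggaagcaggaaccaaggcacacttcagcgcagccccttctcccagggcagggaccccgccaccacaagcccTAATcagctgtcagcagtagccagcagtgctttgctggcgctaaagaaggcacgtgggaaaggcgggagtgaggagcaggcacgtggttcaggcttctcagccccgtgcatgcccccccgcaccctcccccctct
Slc32a1, chr2:158610508-158610757, plus strand: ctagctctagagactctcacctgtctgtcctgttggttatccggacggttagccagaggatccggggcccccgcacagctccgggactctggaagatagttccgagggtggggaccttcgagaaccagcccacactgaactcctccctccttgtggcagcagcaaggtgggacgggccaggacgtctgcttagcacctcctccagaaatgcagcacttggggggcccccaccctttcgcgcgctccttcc
The stretches of Sncg and Pvalb held 2 matches each, that of Cplx3 held 1 and that of Slc32a1 held 0. Of all 32851 promoters in the table, 54.9% held at least 1 match in the same 250 bases. These matches describe the letters in this window only.

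Over all probe sets tested, 334 were called higher in PV cells (2.8%) and 161 lower (1.35%). Counts of called genes in the lists below are to be read against these shares. A call is a Benjamini-Hochberg adjusted p below 0.05 over all 11945 probe sets and an absolute log2 difference no smaller than 1. Both sides had clear extremes: 203 of the probe sets called higher (1.7% of those tested) had all 3 PV arrays above all 12 amacrine arrays, and 61 of those called lower (0.511%) had all 3 below. These p-values measure the spread of arrays within a line. With each line reduced to its mean, 1 PV value against 4 amacrine values, 29 were called higher and 3 lower (1182 at an unadjusted p below 0.05). Of the 103 called probe sets named in this text, 17 kept the call in that fit: Sncg, Rbpms, Rbpms2, Nrn1, Slc17a6, Pou4f1, S100a10, Anxa2, Chrnb3, Gal, Atp6ap1l, Clvs2, Tmeff2, Tmem163 and Tafa1, which were higher, and Slc32a1 and Gm10785, which were lower. The other 86 lost it, and this holds for each of them below without being repeated.

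Against single lines, 293 probe sets were called higher and 212 lower relative to Arc 1st (2.45% and 1.77%). Relative to ChAT the numbers were 349 and 217 (2.92% and 1.82%), relative to Fam81a 368 and 210 (3.08% and 1.76%), and relative to Ier5 436 and 250 (3.65% and 2.09%). Of the 334 probe sets called higher, 98 were also called higher against each of the 4 lines, 96 against 3 lines, 83 against 2, 46 against 1 and 11 against none. Of the 161 called lower, 28 were called lower against each of the 4, 33 against 3, 62 against 2, 34 against 1 and 4 against none. The 4 comparisons share the PV arrays.

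**Figure D2:**
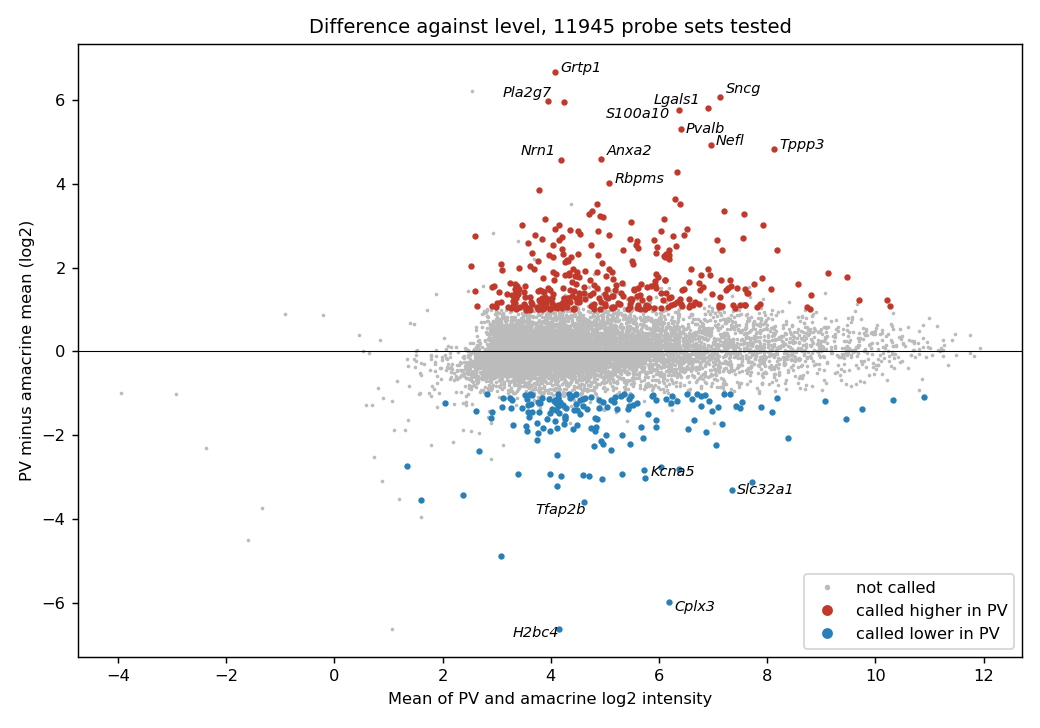
Difference of PV minus the amacrine mean (vertical axis, log2) against the mean of both levels (horizontal axis, log2 intensity) for the 11945 probe sets tested; red points were called higher in PV cells (334), blue points lower (161), grey points were not called. Values are as deposited, so points such as Grtp1, Pla2g7 and H2bc4, which rest on values in the low range (3.99 and below), lie farther from 0 than the bounds given in the text.

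Among called genes above the low range on all 15 arrays and without overlap of the groups, the largest positive differences after Sncg belonged to Lgals1 and S100a10. Lgals1, the carbohydrate-binding protein galectin-1, read 690, 934 and 1104 on the PV arrays and 6.68 to 122 on the amacrine arrays (median 14), a difference of 5.80 ± 0.62 (limma adjusted p = 3.2e-05). S100a10 encodes a small protein that binds annexin A2 and carries membrane proteins to the cell surface. It read 750, 577 and 530 on the PV arrays, against 6.29 to 21.8 on the amacrine arrays (median 10.2), a difference of 5.76 ± 0.23 (limma adjusted p = 6e-10). Anxa2, its annexin partner, read 121, 177 and 155 on the PV arrays and 4.17 to 10.8 on the amacrine arrays (median 6.37), with a difference of 4.59 ± 0.22 (limma adjusted p = 6.3e-09). Another annexin, Anxa5, read 458, 209 and 229 on the PV arrays and 8.41 to 67.5 on the amacrine arrays, and it was higher by 3.65 ± 0.34. None of these 4 genes had an amacrine array within the range of the PV arrays.

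Further genes of this group have roles in the cytoskeleton, in membranes and in protein turnover. Tppp3, a tubulin-binding protein, was among the brightest, with 1401, 1469 and 1601 on the PV arrays, against 24.7 to 143 on the amacrine arrays (median 51.9). It was higher by 4.83 ± 0.29 (limma adjusted p = 9.2e-08). Fbxo2, a neuronal ubiquitin ligase subunit that recognises glycoproteins, read 370, 361 and 333 on the PV arrays and 7.09 to 79.1 on the amacrine arrays, higher by 4.29 ± 0.35. The ChAT arrays, at 28 to 79.1, gave the highest amacrine value of Fbxo2. Tmem163, a zinc-transporting membrane protein, was higher by 3.51 ± 0.37, Clvs2, a lipid-binding protein of clathrin-coated vesicles, by 3.35 ± 0.23, and Tmeff2, a transmembrane protein with follistatin-like domains, by 3.28 ± 0.33. Lhfpl5, known from the mechanotransduction channel of hair cells, was higher by 3.35 ± 0.47. It read 498, 569 and 375 on the PV arrays, 59.2 to 181 on the ChAT arrays and 11.8 to 18.3 on the Ier5 arrays, and it was not called against ChAT.

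The amacrine values of the next genes reach the low range (3.99 and below). This limit was set from all arrays of the series, and on some of them values up to it carry no order. On the 15 arrays compared here, lack of order was seen only up to 0.38, so the limit is a cautious one. Only bounds are given for them, computed with such values raised to 3.99. Other genes with some values in this range, such as Chrna6, Pou4f1, Scn1a and Calb1, are given as deposited unless stated otherwise, so their differences are not exact. Nrn1, neuritin, a membrane-anchored protein that promotes neurite growth, read 94.6, 89 and 85.1 on the PV arrays and 3.15 to 4.62 on the amacrine arrays, so it was at least 4.47 higher on the log2 scale (limma adjusted p = 1.1e-11 for the values as deposited). Pla2g7, a secreted phospholipase that degrades platelet-activating factor, read 188, 122 and 80.9 on the PV arrays and at most 18.7 on the amacrine arrays, at least 4.30 higher. Grtp1 read 212, 168 and 138 on the PV arrays and at most 40.1 on the amacrine arrays, at least 4.03 higher. Its amacrine values were scattered, from 0.0406 to 25.2 within Arc 1st alone. Its call ended without the ChAT set or without any 1 of the PV arrays. Atp6ap1l was at least 3.67 higher, Lmo1, a LIM-only transcriptional cofactor, at least 3.16, and Hs3st3a1, a heparan sulfate sulfotransferase, at least 3.08. Slitrk6, a neuronal adhesion protein, was at least 2.83 higher and Lgi1, a secreted synaptic protein, at least 2.78. All these bounds are against the amacrine mean and do not hold for every line. Pla2g7 was not called against Arc 1st or Fam81a, Lmo1 not against ChAT and Slitrk6 not against Arc 1st. Grtp1 was called against ChAT alone.

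Of the 14 ganglion cell markers listed, 12 were tested, and 11 of them were called higher in PV cells and none lower, against 2.8% and 1.35% of all probe sets. Their median difference was 2.73, against -0.01 over all probe sets tested. Of the 11, 10 were called higher against each of the 4 amacrine lines, and Thy1 was the exception. The Thy1 promoter drives the reporter of the PV line, so the call of Thy1 is not independent of how the cells were chosen. Summed over the list, intensity was 2401 to 2879 on the PV arrays and 107 to 436 on the amacrine arrays. In cells sorted by a label, a larger share of cells of a type and more RNA per cell cannot be told apart.

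Slc17a6, the vesicular glutamate transporter of ganglion cells, read 49.1, 83.2 and 56.6 on the PV arrays and 6.05 to 12.6 on the amacrine arrays (median 7.79), higher by 2.88 ± 0.17 (limma adjusted p = 6.8e-08). The other vesicular glutamate transporters, Slc17a7 and Slc17a8, were dim in all 5 lines, at 5.78 to 6.33 and 6 to 8.74 on the PV arrays. Rbpms2, a paralogue of Rbpms, was higher by 1.98 ± 0.23. Thy1, a surface glycoprotein long used to purify ganglion cells and the source of the promoter in the PV reporter, read 212, 305 and 265 on the PV arrays. On the amacrine arrays it spanned 7.38 to 236, with 186 to 236 in Ier5, 120 to 150 in Arc 1st, 74.7 to 104 in Fam81a and 7.38 to 25.8 in ChAT. The groups therefore overlapped. Thy1 was higher by 1.71 ± 0.28 (limma adjusted p = 0.0015), and it was not called against Arc 1st or Ier5, nor against the mean without the ChAT set.

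Of 16 tested genes of the axonal cytoskeleton, 7 were called higher (43.8%, against 2.8% of all probe sets) and none lower, with a median difference of 0.64. Nefl, the light neurofilament subunit, read 723, 743 and 597 on the PV arrays and 8.97 to 71.9 on the amacrine arrays (median 28.9), higher by 4.93 ± 0.35 (limma adjusted p = 6e-07). The medium subunit Nefm read 138, 189 and 134 on the PV arrays, against 8.82 to 84.4 on the amacrine arrays, higher by 2.66 ± 0.22. The heavy subunit Nefh read 24.4, 35.3 and 15.1 on the PV arrays and 7.9 to 65.9 on the amacrine arrays. The groups overlapped, and its difference of 0.60 ± 0.28 was not called (limma adjusted p = 0.21).

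Among the other genes of the list, Tubb3, the neuronal beta-tubulin, read 796, 688 and 592 on the PV arrays and 26.2 to 150 on the amacrine arrays, higher by 3.02 ± 0.24. Stmn2, which regulates microtubules in growing axons, read 467, 719 and 607 on the PV arrays, against 15.4 to 117 on the amacrine arrays, higher by 3.27 ± 0.39. Gap43, a growth cone protein, was higher by 2.75 ± 0.29, Uchl1, an abundant neuronal deubiquitinase, by 2.71 ± 0.34, and Ina, the neuronal intermediate filament internexin, by 1.61 ± 0.31. Arc 1st was the nearest line for Gap43, at 70.7 to 135, and for Uchl1, at 238 to 249, and neither was called against it. For Ina the nearest lines were Fam81a and Ier5, up to 406, against 648 to 677 on the PV arrays. The motor proteins and Map1b, Mapt and Basp1 of the same list had differences between -0.05 and 0.68 and were not called.

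Several calcium-binding proteins were also higher in PV cells. Of 13 tested buffers and sensors, 8 were called higher (61.5%, against 2.8% of all probe sets) and none lower, with a median difference of 1.20. The 8 include Pvalb, whose promoter chose the cells. Vsnl1, the sensor visinin-like protein, read 157, 140 and 156 on the PV arrays and 12.3 to 70.3 on the amacrine arrays, higher by 2.26 ± 0.23. Pvalb, S100a10 and Vsnl1 were called against every one of the 4 lines, whereas several others were as high or higher in ChAT cells. Calb2, calretinin, read 771, 698 and 566 on the PV arrays and 996 to 1271 on the ChAT arrays, but 7.16 to 8.49 on the Arc 1st arrays. Its difference from the amacrine mean was 2.43 ± 0.25, with no call against ChAT.

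Hpcal1, a hippocalcin-like sensor, had the same arrangement, with 297, 243 and 223 on the PV arrays, 259 to 382 on the ChAT arrays and 4.1 to 42.1 on the other amacrine arrays. Necab2, a neuronal calcium-binding protein, read 105, 126 and 107 on the PV arrays, 42.4 to 85 on the ChAT arrays and 6.56 to 29.8 on the others. Calb1, calbindin, read 96.8, 52.1 and 62.7 on the PV arrays and overlapped Fam81a (68 to 80.6), while all ChAT arrays were above PV (113 to 186). Its call, a difference of 1.20 ± 0.27, ended without the Arc 1st set, without the Ier5 set or without PV replicate 1. S100b, also an astrocyte marker, was higher by 1.06 ± 0.25, and this call ended without PV replicate 1, without PV replicate 2 or without Fam81a replicate 2. Necab1, Necab3, Cabp1, Ncald and Hpca were tested and not called, with differences from -0.84 to 0.79.

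**Figure D3:**
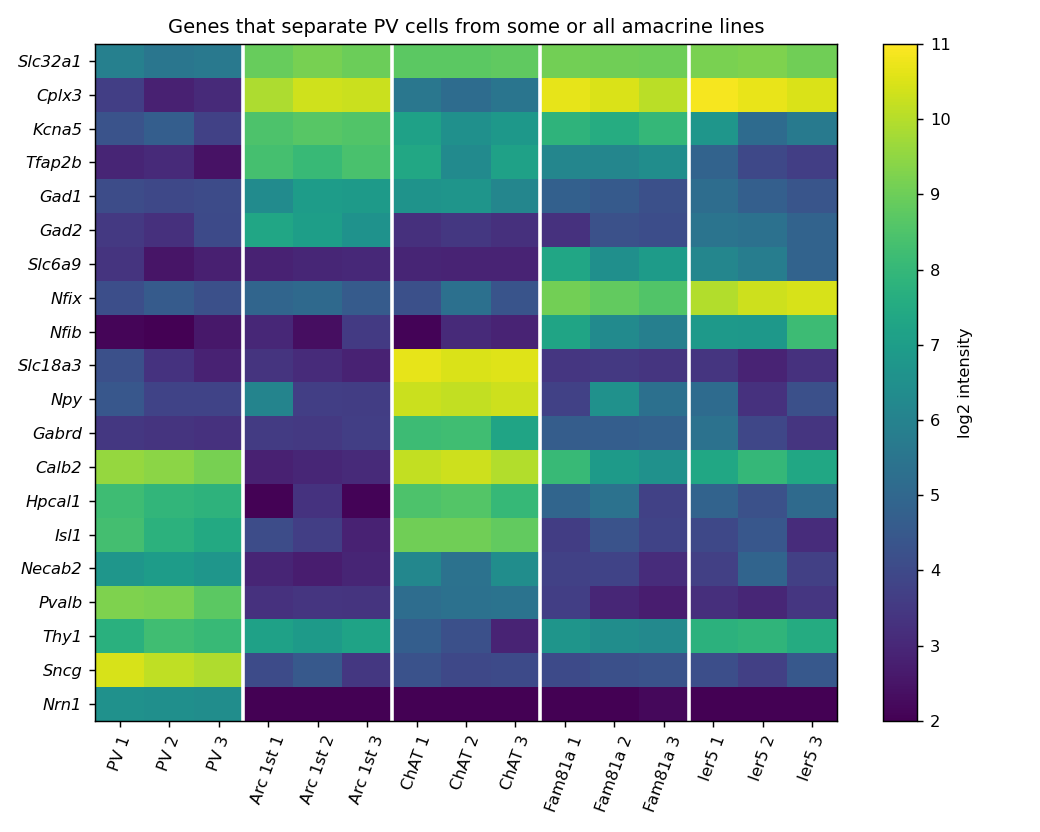
Log2 intensity of 20 genes (rows) on the 15 arrays (columns; PV on the left, then Arc 1st, ChAT, Fam81a and Ier5), brighter colours for higher values. Sncg and Nrn1 are bright on the PV arrays alone, Calb2, Hpcal1 and Isl1 are bright in PV and ChAT, Nfix and Nfib in Fam81a and Ier5, and Slc18a3, Npy and Gabrd in ChAT; the genes were picked after their values were seen.

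Ganglion cell transcription factors were higher in part. Of 24 tested, 4 were called higher (16.7%, against 2.8% of all probe sets) and none lower, with a median difference of 0.34. Pou4f1, the POU factor Brn3a of ganglion cells, read 21.4, 40.3 and 46.7 on the PV arrays and 3.73 to 7 on the amacrine arrays, higher by 2.78 ± 0.26 (limma adjusted p = 1e-05). Pou3f2, another POU factor, read 30.1, 11.4 and 11.3 on the PV arrays. Of its 12 amacrine values 10 were in the low range, so it was at least 1.96 higher. Isl2, a LIM homeodomain factor, read 21.6, 37.7 and 22.8 on the PV arrays, against 8.05 to 11.6 on the amacrine arrays, higher by 1.47 ± 0.16.

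Isl1, its paralogue, read 321, 218 and 177 on the PV arrays. The ChAT arrays were higher still, at 459 to 533, and the other amacrine arrays lay between 7.23 and 21.6. Isl1 differed from the amacrine mean by 2.78 ± 0.29 and was not called against ChAT. In the mouse, Isl1 is known from starburst amacrine cells, the cholinergic cells that ChAT marks. Eomes and Tbr1, which mark other ganglion cell types, differed by -0.08 and 0.12 and were not called. Of 20 tested genes known to differ among ganglion cell types, Jam2 and Lxn were called higher (10%) and Nmb lower (5%). Over all probe sets these shares were 2.8% and 1.35%. Jam2, an adhesion molecule known from a ganglion cell type with upward direction preference, read 58.9, 49.4 and 37.2 on the PV arrays and 21.7 to 30.5 on the ChAT arrays, and it was not called against ChAT. With low values raised to 3.99, its difference from the amacrine mean was 2.42. Lxn, a carboxypeptidase inhibitor, read 117, 102 and 58.6 on the PV arrays and 6.55 to 33.3 on the amacrine arrays, higher by 2.79 ± 0.27. Kcng4, Opn4 and Cartpt had differences of 0.39, -0.02 and 0.44.

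Among receptors and channels, 2 of 7 tested nicotinic receptor subunits were called higher (28.6%, against 2.8% of all probe sets) and none lower. Chrna6 read 48.4, 31.2 and 32.1 on the PV arrays and 3.76 to 9.4 on the amacrine arrays, higher by 2.69 ± 0.18. Chrnb3, with which it assembles, read 63.2, 37.5 and 33.4 on the PV arrays, against 5.83 to 12.8 on the amacrine arrays, higher by 2.45 ± 0.21. Chrna3 was above all amacrine arrays, with 16.7, 14.6 and 19.1 on the PV arrays and at most 13.3 on the amacrine arrays. Its difference of 0.99 ± 0.24 lay just under the size needed for a call.

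Of 36 tested potassium channel genes, 3 were called higher (8.33%) and 1 lower (2.78%), against 2.8% and 1.35% of all probe sets. Kcnip4, an auxiliary subunit of A-type channels, read 54.2, 39.4 and 35.2 on the PV arrays and 6.04 to 26.3 on the amacrine arrays, higher by 2.33 ± 0.29. Kcnd2, the pore subunit Kv4.2 of such channels, read 29.6, 50.9 and 71.9 on the PV arrays and overlapped 1 Arc 1st array at 57.4. It was higher by 1.71 ± 0.39, and the call ended without the Fam81a set, without PV replicate 2 or without PV replicate 3. Kcnab2, a beta subunit, was higher by 1.01 ± 0.14, at the edge of the call, and lost it when any of several single arrays, PV replicate 1 among them, was left out. Scn1a, a sodium channel of fast-spiking neurons, was the 1 of 6 tested sodium and HCN channels that was called, with 9.9, 9.88 and 17.7 on the PV arrays and 3.37 to 8.1 on the amacrine arrays (1.15 ± 0.22). It was not called without PV replicate 3. None of 8 calcium channel genes, 11 ionotropic glutamate receptor genes, 10 genes of the axon initial segment and node, or 28 axon guidance genes was called in either direction. Of all probe sets tested, 2.8% were called higher and 1.35% lower, so an absence of calls in lists this small is near that share. Epha5, Nrp1 and Epha4 of the guidance list had differences of 0.95, 0.92 and 0.88, with adjusted p (limma) of 0.0019, 0.0018 and 0.0037, below the size needed for a call.

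The potassium channel gene called lower was Kcna5, a delayed rectifier of the Kv1 family. It read 19.6, 25.7 and 13.3 on the PV arrays and 35.7 to 406 on the amacrine arrays (median 166), a difference of -3.03 ± 0.28 (limma adjusted p = 7.9e-06). Arc 1st was highest, at 363 to 406, and Ier5 lowest of the amacrine lines, at 35.7 to 105. Kcna5 was called lower against every one of the 4 lines. Kcnmb4, a beta subunit of calcium-activated potassium channels that stood outside this list, was lower by 2.00 on the log2 scale (SE 0.30). It read 26.4, 9.96 and 30.3 on the PV arrays, 393 to 605 on the ChAT arrays and 254 to 499 on the Ier5 arrays, but 8.51 to 9.29 on the Arc 1st arrays, below PV. The call ended without the ChAT set.

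Genes of inhibitory transmission were lower in PV cells. Of 5 tested genes for GABA and glycine release, 4 were called lower (80%, against 1.35% of all probe sets) and none higher. Slc32a1, the vesicular transporter that loads both GABA and glycine, read 61.2, 46.1 and 49.7 on the PV arrays and 422 to 617 on the amacrine arrays (median 526). It was lower by 3.30 on the log2 scale (SE 0.12, limma adjusted p = 2.2e-10), and each of the 4 amacrine lines lay in a narrow band. Its PV level was below the 67.9 to 252 of the 9 arrays of the rod, cone and bipolar lines of the same batch (b2, Chrnb4 and Pcp2).

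The other 3 genes called lower divided the amacrine lines. Gad1, a GABA-synthesising enzyme, read 16.9, 15.4 and 16.6 on the PV arrays, against 80.4 to 125 in Arc 1st, 69.9 to 103 in ChAT, 18.2 to 26.8 in Fam81a and 20.7 to 37.2 in Ier5. It was lower by 1.60 on the log2 scale (SE 0.22) and not called against Fam81a or Ier5. Gad2, the second such enzyme, read 11.3, 9.46 and 16.1 on the PV arrays, 95.8 to 159 in Arc 1st and 9.51 to 10.9 in ChAT. Its difference of -1.27 ± 0.23 lost the call without the Arc 1st set. Slc6a9, the glycine transporter of glycinergic amacrine cells and of glia, read 10.1, 5.7 and 6.95 on the PV arrays and 89.1 to 161 in Fam81a and 29.4 to 69.8 in Ier5. In Arc 1st and ChAT it read 7.33 to 8.28, within the PV range. Its difference of -1.72 ± 0.24 lost the call without the Fam81a set. Abat, the enzyme that breaks down GABA, was not called (0.37 ± 0.19), and Slc6a5, the neuronal glycine transporter, was dim in all 5 lines.

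Of the 14 amacrine markers listed, 12 were tested, with 7 called lower (58.3%, against 1.35% of all probe sets) and none higher and a median of -1.18. Summed over the list, intensity was 237 to 259 on the PV arrays and 798 to 1681 on the amacrine arrays, and it was 190 to 492 on the rod, cone and bipolar arrays of batch 1. Only Slc32a1 and Tfap2b were called lower against each of the 4 lines. Tfap2b, an AP-2 factor of amacrine cells, read 7.71, 8.41 and 5.42 on the PV arrays, against 267 to 339 in Arc 1st, 79.7 to 167 in ChAT, 70.2 to 86.2 in Fam81a and 12.6 to 28.8 in Ier5. It was lower by 3.58 on the log2 scale (SE 0.27, limma adjusted p = 9e-07). Tfap2a read 5.86, 5.7 and 6.75 on the PV arrays and 6.06 to 95.3 on the amacrine arrays, lower by 1.90 on the log2 scale (SE 0.31). C1ql2, a secreted synaptic organiser, was lower by 1.09 on the log2 scale (SE 0.26), and its call ended without the Arc 1st set, without PV replicate 1 or without PV replicate 3. Pax6, which both classes express, read 95.2, 91.2 and 84 on the PV arrays and 72.5 to 246 on the amacrine arrays. It was not called (-0.76 ± 0.18).

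Of 20 tested amacrine transcription factors, 4 were called lower (20%, against 1.35% of all probe sets) and none higher, with a median of -0.55. Besides Tfap2a and Tfap2b they were Neurod4 and Tcf4, both high in Fam81a and Ier5 only. Neurod4, a basic helix-loop-helix factor, read 3.85, 7.02 and 2.98 on the PV arrays, 30.9 to 47.4 in Fam81a and 12.3 to 49 in Ier5, but 3.83 to 6.86 in the other 2 amacrine lines. Its call ended without the Fam81a set or without PV replicate 3. Tcf4, a partner of such factors, read 6.59, 7.38 and 7.87 on the PV arrays and 26 to 60.9 in Fam81a and Ier5. Its call ended without the Ier5 set. The nuclear factor I genes, which belong to no list here, had the same arrangement. Nfix read 17.7, 24 and 18.5 on the PV arrays, against 374 to 538 in Fam81a and 988 to 1401 in Ier5, but 18.3 to 40.2 in Arc 1st and ChAT. Nfib read 4.31, 2.21 and 5.93 on the PV arrays, 59.8 to 152 in Fam81a and 112 to 289 in Ier5. Both were called against Fam81a and Ier5 and against neither Arc 1st nor ChAT.

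Among genes of conventional synapses, 1 of 20 was called higher and 1 lower (5% each, against 2.8% and 1.35% of all probe sets). Cplx3, a complexin of ribbon synapses and of some amacrine cells, had the largest negative difference among called genes with every value above the low range. It read 12.7, 7.13 and 8.48 on the PV arrays and 36.5 to 1884 on the amacrine arrays (median 1267), lower by 5.98 on the log2 scale (SE 0.19, limma adjusted p = 5.7e-11). The ChAT arrays, at 36.5 to 48, were far below the 961 to 1884 of the other 3 amacrine lines and still above all PV arrays. Cplx1, the complexin of conventional synapses, read 75.8, 94.9 and 74.3 on the PV arrays, against 29.8 to 59.7 on the amacrine arrays, higher by 1.08 ± 0.20. That call ended without PV replicate 2.

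Of 4 tested genes for acetylcholine release, 1 was called lower (25%, against 1.35% of all probe sets) and none higher. It was Slc18a3, the vesicular acetylcholine transporter, which read 18.5, 9.93 and 7.26 on the PV arrays and 1454 to 1640 on the ChAT arrays, but 7.26 to 11.2 on the others. Its difference from the amacrine mean was -1.61 ± 0.23, and without the ChAT set it was 0.219 and not called. Chat itself was low everywhere, at 7.07, 6.8 and 8.18 on the PV arrays and 8.53 to 9.74 on the ChAT arrays. Npy, neuropeptide Y, read 21.9, 14 and 14.2 on the PV arrays and 1149 to 1277 on the ChAT arrays, and its call (-2.00 ± 0.55) ended without the ChAT set, without any 1 of the PV or ChAT arrays and without Fam81a replicate 3. Gabrd, an extrasynaptic GABA receptor subunit, read 11.1, 10.1 and 9.83 on the PV arrays and 154 to 303 on the ChAT arrays, and was called against ChAT alone.

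Of 14 neuropeptide genes, Gal and Tac1 were called higher (14.3%) and Npy and Nmb lower (14.3%), against 2.8% and 1.35% of all probe sets. Gal, galanin, read 10.7, 23.1 and 19 on the PV arrays and 3.41 to 5.97 on the amacrine arrays. With low values raised to 3.99, its difference was 1.89. Tac1, the substance P precursor, read 309, 498 and 249 on the PV arrays and 0.533 to 992 on the amacrine arrays, where the ChAT arrays were lowest, at 0.533 to 5.97. The groups overlapped, and the call of Tac1 (limma adjusted p = 0.04) ended in 15 of 31 alternatives. Among them were those without the ChAT set or without any 1 of the PV or Arc 1st arrays. The call of Nmb, neuromedin B (-1.24 ± 0.33), ended without PV replicate 2, without PV replicate 3, without the ChAT set or without the Fam81a set. Grm8, a metabotropic glutamate receptor, was lower by 1.83 on the log2 scale (SE 0.32), with 6.35, 10.2 and 6.91 on the PV arrays and 11.3 to 68.8 on the amacrine arrays.

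The remaining genes with large negative differences span enzymes, a receptor and poorly described transcripts. Car2, carbonic anhydrase II, read 28.7, 32.7 and 17.1 on the PV arrays and 63.2 to 480 on the amacrine arrays, lower by 2.75 on the log2 scale (SE 0.23). Gstt2, a glutathione transferase, read 11.6, 8.14 and 8.73 on the PV arrays and 22.8 to 154 on the amacrine arrays, lower by 2.96 on the log2 scale (SE 0.28). Ackr1, an atypical chemokine receptor, read 182, 163 and 150 on the PV arrays, against 522 to 1073 on the amacrine arrays, lower by 2.07 on the log2 scale (SE 0.14, limma adjusted p = 3.7e-07). All 3 were called against each of the 4 amacrine lines.

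Syce2, a synaptonemal complex protein, was lower by 2.26 on the log2 scale (SE 0.23) and Cacng3, an AMPA receptor auxiliary subunit, by 2.21 (SE 0.32). Tuba8, an alpha-tubulin, was lower by 2.20 (SE 0.28) and Qpct, glutaminyl cyclase, by 2.12 (SE 0.31). Cacng3 was not called against Arc 1st, and neither Tuba8 nor Qpct was called against ChAT. Among transcripts without a described role, the differences were -3.21 ± 0.52 for A530040E14Rik, -3.11 ± 0.56 for Gm10785, -2.98 ± 0.55 for Gm6642 and -2.22 ± 0.36 for Gm15455. Gm6642 was not called against ChAT or Fam81a. Gm10785 varied widely among the PV arrays, at 213, 23.2 and 74.8, against 263 to 1307 on the amacrine arrays. The fit of line means does not take in this spread. The call of Gm10785 ended with all 78 arrays in 1 fit, and in batch 3 its difference of -1.73 was not called. H2bc4, a histone H2B gene, read 10.2, 8.34 and 0.0671 on the PV arrays, against 40.9 to 582 on the amacrine arrays, at least 4.66 lower on the log2 scale. All 3 PV values of B430209F14Rik were in the low range, and it was at least 1.39 lower. High levels of several of these genes were not limited to amacrine cells. The rod line b2 of batch 1 read 2008 to 2472 for Gm10785, 922 to 1213 for Gm15455, 312 to 658 for A530040E14Rik and 1135 to 1379 for H2bc4. These values were above all amacrine arrays, whereas Gm6642, at 13.7 to 183 in b2, lay within the amacrine range.

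**Figure D4:**
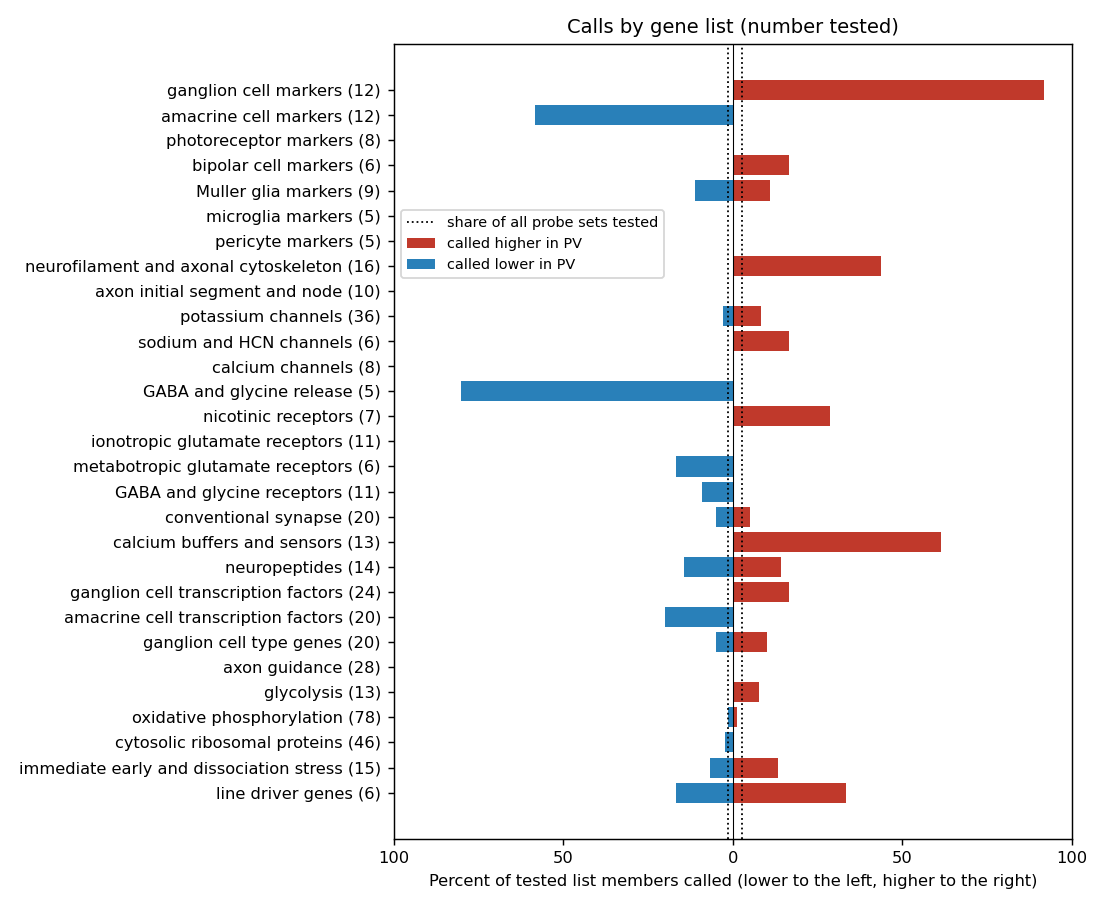
Share of tested genes of each list that were called higher in PV cells (red, to the right) or lower (blue, to the left); the number tested is in brackets, lists with fewer than 5 tested genes are left out, and dotted lines mark the 2.8% and 1.35% of all probe sets. Ganglion cell markers reach 91.7% higher, amacrine cell markers 58.3% lower, and axon guidance and ionotropic glutamate receptor genes have no calls.

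Shares called in metabolic and ribosomal lists are read against the 2.8% higher and 1.35% lower of all probe sets. Of 13 tested glycolytic genes, 1 was called higher (7.69%), with a list median of 0.50. It was Eno2, the neuronal enolase, with 115, 106 and 129 on the PV arrays and 32.4 to 75 on the amacrine arrays, higher by 1.30 ± 0.20. Pkm and Tpi1 were above all amacrine arrays with differences below 1, of 0.76 for Tpi1 and of 0.97 and 0.82 for the 2 probe sets of Pkm. Of 78 oxidative phosphorylation genes, 1 was called in each direction (1.28%), Sdhd higher by 1.03 ± 0.22 and Cox6a2 lower by 1.02 on the log2 scale (SE 0.29), with a list median of 0.14. The call of Sdhd ended without PV replicate 2, without the ChAT set and without either of 2 amacrine arrays. That of Cox6a2 ended in 16 of 31 alternatives, among them those without any 1 of the PV or Fam81a arrays. Of 46 ribosomal protein genes, Rpl29 was called lower (2.17%), with 313, 338 and 425 on the PV arrays and 707 to 992 on the amacrine arrays, and the list median was -0.25.

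Of 15 immediate early and dissociation stress genes, Ier3 and Hspa1a were called higher (13.3%) and Ier5 lower (6.67%), against 2.8% and 1.35% of all probe sets. Ier3, an early response gene, read 79.9, 100 and 110 on the PV arrays and 5.93 to 44.5 on the amacrine arrays, higher by 2.17 ± 0.34. Hspa1a, an inducible heat shock protein, was higher by 1.34 ± 0.35 with overlapping groups, and the call ended without any 1 of the PV arrays. Ier5 read 18.9, 21.5 and 21.7 on the PV arrays and 87 to 188 on the Ier5 arrays, and its call ended without the Ier5 set. Arc read 11, 15.7 and 12.8 on the PV arrays and 25.5 to 32.2 in Arc 1st, and Fam81a read 4.01, 5.42 and 6.69 on the PV arrays and 18.2 to 24.7 in its own line. Neither was called against the amacrine mean.

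Markers of other retinal cells were measured beside these results. Counts of called markers here and in the next paragraph are read against the 2.8% higher and 1.35% lower of all probe sets. Summed over each list, photoreceptor markers were at 101 to 160 on the PV arrays and 38.9 to 349 on the amacrine arrays, with 0 of 8 tested called, and Crx and Arr3 were dim. The photoreceptor gene Rom1 was above all amacrine arrays, with 51.3, 30.2 and 80.5 on the PV arrays and at most 27.3 on the amacrine arrays, and it was not called. Bipolar markers were at 115 to 148 on the PV arrays, against 72.7 to 127 on the amacrine arrays, with 1 of 6 called higher, Gng13, a G protein subunit, at 70.3, 55.1 and 43.7 on the PV arrays and 10.9 to 43.3 on the amacrine arrays. That call ended without the ChAT set or without PV replicate 1 or 2. Otx2 and Trpm1 were dim. Horizontal cell markers were at 356 to 360 on the PV arrays and 69.1 to 635 on the amacrine arrays. The 1 called of 3 tested was Calb1, and Lhx1 was dim.

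Müller glia markers were at 454 to 699 on the PV arrays and 263 to 990 on the amacrine arrays. Of 9 tested, Clu, clusterin, was called higher (1.52 ± 0.32) and Apoe, a lipid carrier, lower (-1.41 ± 0.35), while Aqp4 and Kcnj10 were dim. Clu read 285, 265 and 340 on the PV arrays, and all Arc 1st arrays were above them, at 360 to 412. Its call ended without the ChAT set or without PV replicate 3. The call of Apoe ended without the Ier5 set, without PV replicate 1 or without PV replicate 2. Astrocyte markers were at 30.8 to 42.4 on the PV arrays and 24.5 to 31.3 on the amacrine arrays, with S100b called higher and Gfap dim. Microglia markers were at 90.6 to 101 on the PV arrays and 90.6 to 110 on the amacrine arrays. Endothelial markers were at 80.3 to 172 on the PV arrays and 67.6 to 111 on the amacrine arrays. No microglial, endothelial, pericyte, oligodendrocyte or pigment epithelium marker was called in either direction. The part of other cells in the results above was not tested.

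The same class difference was measured in batch 3 with other arrays, 9 of the ganglion lines Drd4, Grik4 and Opn4 and 12 of the amacrine lines Arc 3rd, Igfbp2, Rgs5 and Crh. There, 412 of 14305 probe sets were called higher in ganglion cells (2.88%) and 375 lower (2.62%). Of the 334 probe sets called higher in PV cells, 140 were also called higher in batch 3, which is 41.9% of the PV list and 40.8% of the batch 3 list over probe sets tested in both. Another 3 were called lower in batch 3. Of the 161 called lower in PV cells, 53 were called lower in batch 3, which is 32.9% of the PV list and 14.3% of the batch 3 list, and 10 were called higher. Of the 12 tested ganglion cell markers, 10 were called higher in batch 3, and of the 12 tested amacrine markers 9 were called lower.

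Markers of other retinal cells were also called higher in the batch 3 ganglion arrays, and none of those in the lists named here was called lower there. Over all probe sets tested, 2.88% were called higher in batch 3 and 1.78% in the difference between the contrasts, and the counts here are read against these shares. Among markers tested in both fits, all 5 of microglia were called higher, with 3 called in the difference between the contrasts described next. Summed over the microglia list, intensity was 94.8 to 2482 on the batch 3 ganglion arrays (median 260) and 74.7 to 342 on the batch 3 amacrine arrays (median 94.2). Of 9 Müller glia markers, 5 were called higher, Apoe among them, with sums of 460 to 8700 on the batch 3 ganglion arrays (median 2196) and 635 to 4562 on the batch 3 amacrine arrays (median 766). Bipolar markers were called higher in 3 of 6 cases, Gng13 among them, with sums of 109 to 3313 on the batch 3 ganglion arrays and 72.1 to 1691 on the batch 3 amacrine arrays. Photoreceptor markers were called higher in 2 of 8 cases, Rom1 among them, with sums of 157 to 4801 on the batch 3 ganglion arrays and 67 to 4551 on the batch 3 amacrine arrays. The 3 Drd4 arrays read 1742, 859 and 836 for Apoe and 1277, 447 and 494 for Gng13. The part of these markers in the batch 3 contrast and in its difference from the PV contrast was not tested.

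Several markers called higher in PV cells were also called higher in batch 3 without a call in the test of the difference between the contrasts. Sncg differed by 6.07 in PV cells and by 5.96 in batch 3, with 1095 to 1789 on the batch 3 ganglion arrays and 12.1 to 65.2 on the batch 3 amacrine arrays. The difference between the contrasts was 0.11 ± 0.35. Nrn1 differed by 4.58 and 4.68 as deposited, Rbpms by 4.02 and 3.50, and Nefm by 2.66 and 2.61. The contrasts were 5.76 and 4.57 for S100a10 and 5.80 and 4.75 for Lgals1, also with no call. Pvalb and Anxa2, described below, were called in that test.

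The test of the difference between the PV contrast and the batch 3 contrast called 254 probe sets (1.78%), 100 with the PV contrast higher (0.699%) and 154 with it lower (1.08%). The count was 140 without PV replicate 2 and 150 without PV replicate 3. Of the 334 called higher in PV cells, 50 were called with the PV contrast higher and 1 with it lower. Of the 161 called lower, 42 were called with the PV contrast lower and 2 with it higher. The arrays that picked these 2 lists are also part of the difference. A lean of each list toward its own direction was therefore built in, and no conclusion is drawn from these counts. Arc is the only line measured in both batches, so the other lines cannot be told apart from the batch.

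**Figure D5:**
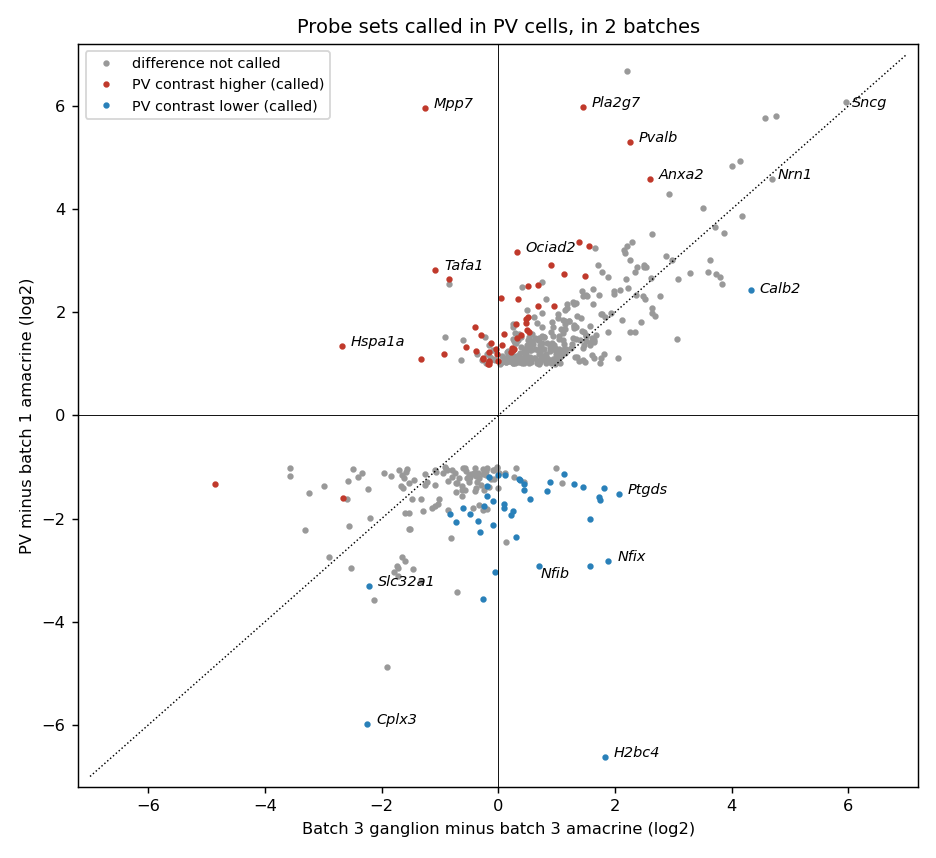
Probe sets called in PV cells and tested in both fits: PV minus batch 1 amacrine (vertical axis, log2) against batch 3 ganglion minus batch 3 amacrine (horizontal axis, log2), as deposited. Red points have a PV contrast called higher than the batch 3 contrast, blue points one called lower, grey points no call, and the dotted line marks equality; Sncg lies on the line, Pvalb, Tafa1 and Ociad2 above it, and Calb2, Cplx3 and Nfix below it.

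Pvalb itself was among the genes with a larger PV contrast (5.31 against 2.25, a difference of 3.06 ± 0.32, limma adjusted p = 9.2e-07). Since the Pvalb promoter chose the PV cells and none of the batch 3 lines, this difference is a check of the label. All 9 ganglion arrays of batch 3 were below the PV arrays: Drd4 arrays read 202 to 401, Opn4 arrays 36.2 to 56.4 and Grik4 arrays 10.5 to 17.5. Tafa1, a secreted chemokine-like neuronal protein, read 61.7, 62.6 and 60.9 on the PV arrays and 6.16 to 14.3 on the batch 1 amacrine arrays, higher by 2.81 ± 0.18. In batch 3 it read 8.46 to 24.9 on the ganglion arrays and 5.53 to 309 on the amacrine arrays, and it was called lower there (-1.08). The contrasts of Tafa1 differed by 3.89 (limma adjusted p = 4e-10).

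Other genes had a larger PV contrast with or without a difference in ganglion level. Ociad2, a mitochondrial and endosomal protein, read 162, 256 and 207 on the PV arrays and 12 to 38.6 on the batch 1 amacrine arrays. The batch 3 ganglion arrays read 42.9 to 108 and the batch 3 amacrine arrays 18.3 to 192, and the contrasts differed by 2.84. All PV arrays were thus above the batch 3 ganglion arrays for Ociad2. Ddah1, an enzyme that degrades the nitric oxide synthase inhibitor ADMA, read 156, 140 and 155 on the PV arrays and 4.31 to 161 on the batch 1 amacrine arrays, where Ier5 overlapped PV. In batch 3 it was at 86.2 to 196 on the ganglion arrays, which spanned the PV values, and 28.8 to 188 on the amacrine arrays. Anxa2 was higher in both batches, by 4.59 and 2.60. Hpgd, the prostaglandin-degrading dehydrogenase, differed by 1.10 in PV cells and by -1.32 in batch 3, and its PV call ended without the Fam81a set, without the Ier5 set, without PV replicate 1 or without PV replicate 2. Mpp7, a scaffold protein of cell junctions, read 169, 113 and 178 on the PV arrays and 0.0614 to 522 on the batch 1 amacrine arrays, where Arc 1st was above PV. Its PV call (limma adjusted p = 0.045) ended in 18 of 31 alternatives. Among them were those without the ChAT set or without any 1 of the PV, Arc 1st or ChAT arrays.

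Several of the named genes with a lower PV contrast were high in Fam81a and Ier5. Nfix was lower by 2.82 on the log2 scale (SE 0.24) in PV cells and higher by 1.89 in batch 3 ganglion cells, where ganglion arrays read 18.9 to 607 and amacrine arrays 12.5 to 101. Nfib, Neurod4, Ptgds and Htra1 were likewise lower in PV cells and called higher in batch 3. Ptgds, prostaglandin D synthase, read 13, 11.4 and 9.76 on the PV arrays and 125 to 199 in Fam81a, and its PV call ended without the Fam81a set or without PV replicate 3. Htra1, a secreted protease, was lower by 1.63 on the log2 scale (SE 0.42) with overlapping groups, and its call ended without any 1 of the PV arrays or without the Fam81a or Ier5 set. Spink13, a protease inhibitor gene, read 4.97, 8.28 and 4.7 on the PV arrays and 175 to 766 in Fam81a and Ier5, but 3.15 to 4.26 in Arc 1st and ChAT, below PV.

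Cplx3 was lower in both batches, by 5.98 on the log2 scale in PV cells and by 2.25 in batch 3. The batch 3 ganglion arrays read 17.8 to 922, and all were above the 7.13 to 12.7 of the PV arrays. Slc32a1 was lower by 3.30 on the log2 scale in PV cells and by 2.21 in batch 3. The Opn4 arrays, at 29.6 to 53.2, were close to PV, and the Grik4 arrays, at 188 to 256, were well above it. H2bc4 differed by -4.66 at least in PV cells and was not called in batch 3. The Arc line read 105 to 268 in batch 1 and 0.0627 to 0.065 in batch 3 for this gene, so its level changed between the batches within 1 line. A530032D15Rik, lower by 1.34 on the log2 scale (SE 0.29) in PV cells with overlapping groups, was also lower in batch 3. All 9 ganglion values there were in the low range. With low values raised to 3.99 it was lower there by 3.61 on the log2 scale, and the difference between its contrasts was not called. Its PV call ended without the Fam81a set or without PV replicate 1.

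Calb2 had the smaller contrast in PV cells. It was higher by 2.43 in PV cells and by 4.32 in batch 3 (difference -1.89 ± 0.39), and the ganglion lines read 333 to 1789 there, against 566 to 771 on the PV arrays. The amacrine levels also differed. In batch 1, ChAT, Fam81a and Ier5 read 94.2 to 1271 and Arc 1st 7.16 to 8.49. In batch 3, Arc 3rd, Igfbp2 and Rgs5 read 6.78 to 40.9 and Crh 705 to 1300. The call of the difference ended without the Drd4, Arc 3rd or Igfbp2 set. Adcyap1, the peptide PACAP of melanopsin ganglion cells, read 11.3, 13.5 and 9.48 on the PV arrays and 5.79 to 8.34 on the batch 1 amacrine arrays. It was not called in PV cells (0.79 ± 0.14) and was called higher in batch 3 (1.86).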

How the data were processed

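Whole-transcript Affymetrix Mouse Gene 1.0 ST arrays were made from sorted cells. The authors deposited 1 intensity per probe set and array on a linear scale (0.0238 to 5770), and log2 was taken here because the plan had assumed log2 values. The submitters' processing notes name RMA, oligo, R 2.11.1 and mm9, without settings. All 78 columns hold the same sorted values (largest difference 0), as quantile normalization leaves them. On 70 arrays the lowest 10 or more values run down in step with the identifiers, so these values have no order of their own. The longest run on any array ends at 3.99, which was taken as the floor (10.5% of values lie at or below it); on the 15 arrays compared here no run ends above 0.38.

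Symbols came from the platform's probe table: 19446 probe sets had 1 symbol, 735 had several and 2166 were not listed, and no symbol changed when updated through gene identifiers. Models with 1 mean per set used limma 3.58.1 in R 4.3.3 with a variance trend, on 15 arrays for the PV contrasts and on 36 for the batch 3 contrast and the difference of contrasts, and were tested on simulated data. Named genes are the 15 largest non-overlapping differences in each direction above the floor, the 8 largest bounds in each direction (2 met the rule for lower), the 10 largest differences of contrasts in each direction, the markers and drivers, and list members. Members, lists and examples were chosen with earlier results of these data known. Several list examples, and every gene shown because 1 line carries it, were picked after their values were seen. The number of arrays limits the precision, and p-values measure only how far the arrays of 1 set scatter, which may be technical. Alternatives covered the arrays in the fit, line means, each line and each replicate left out, the filter, scale, normalization, variance model, probe set choice and replicate block. Tables and figures were made with pandas 2.3.3, numpy 2.4.6 and matplotlib 3.10.9 in python 3.11.15.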

Additional observations from a re-analysis of the deposited data

Results flagged for a closer look

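For 42 genes named above, the difference between PV and batch 1 amacrine cells was not the same as that between batch 3 ganglion and amacrine cells, by the limma test of the difference of the contrasts. Each value is the PV contrast minus the batch 3 contrast on the log2 scale, for values as deposited, and 18 of the 42 kept the call in all 49 alternatives, with 0 reversed. Those 18 were Anxa2 (1.99), Apoe (-3.23), Cplx3 (-3.73), Ddah1 (2.22), H2bc4 (-8.44), Hpgd (2.42), Ier5 (-1.78), Kcnmb4 (-3.57), Neurod4 (-3.31), Nfib (-4.48), Nfix (-4.71), Ociad2 (2.84), Ptgds (-3.59), Pvalb (3.06), Spink13 (-3.60), Syce2 (-1.95), Tafa1 (3.89) and Vsnl1 (1.92). Pvalb and Ier5 here, and Fam81a below, are driver genes of lines compared only in batch 1. Their differences are not independent of how the cells were chosen.

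The other 24 lost the call in at least 1 alternative. The PV contrast was higher for A530032D15Rik (3.53), Eno2 (1.03), Gad1 (1.06), Gap43 (1.62), Hspa1a (4.03), Kcnd2 (2.12), Lhfpl5 (1.97), Mpp7 (7.21), Pla2g7 (4.53), Slitrk6 (2.01), Stmn2 (1.73), Tac1 (3.49) and Uchl1 (1.22). It was lower for Ackr1 (-1.33), Adcyap1 (-1.08), B430209F14Rik (-3.28), Calb2 (-1.89), Fam81a (-1.02), Htra1 (-3.37), Qpct (-2.02), Slc18a3 (-2.16), Slc32a1 (-1.09), Slc6a9 (-1.81) and Tcf4 (-1.89). For 13 of the 42, some of the 36 arrays were in the low range, where values carry no order on some arrays of the series. These differences are therefore not taken as exact: A530032D15Rik, B430209F14Rik, H2bc4, Hspa1a, Htra1, Kcnd2, Mpp7, Neurod4, Nfib, Pla2g7, Slitrk6, Spink13 and Tac1. With low values raised to 3.99, A530032D15Rik (2.28) and B430209F14Rik (-1.18) were not called. H2bc4 then differed by -4.83 rather than -8.44, Mpp7 by 4.19, Hspa1a by 3.45 and Pla2g7 by 3.34.

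Apoe is a Müller glia marker, and markers of Müller glia, microglia, bipolar cells and photoreceptors were called higher in the batch 3 ganglion arrays, with the values given in the report; their part in these differences was not tested. The lines differ between the batches except Arc, so line and batch cannot be told apart in any of these.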

How the results depend on the processing

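The numbers of probe sets called higher (334) and lower (161) stayed within 1.5 times in the fit of the 24 batch 1 arrays, without any 1 amacrine line, under both other filters, with low values raised to the floor, with cyclic loess, under both other variance models and with 1 probe set per gene. With line means they were 29 and 3. With log2(value + 8) they were 203 and 100, and the calls against Ier5 were 443 and those of batch 3 228 higher and 146 lower. With all 78 arrays in 1 fit, 107 were called lower and 432 against Ier5. Batch 3 gave 240 lower calls without Drd4, 563 without Opn4 and 776 without Crh, and the difference of contrasts 399 without Opn4 and 469 without Crh. The cause was not tested.

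With 1 array left out at a time, calls ranged from 242 to 356 higher and from 119 to 174 lower, from 373 to 545 against Arc 1st, 411 to 600 against ChAT, 402 to 631 against Fam81a, 493 to 736 against Ier5, 375 to 447 higher and 288 to 464 lower in batch 3, and 140 to 313 for the difference of contrasts. The lowest of each range of PV calls, and of the difference, came without PV replicate 2. With the replicate number as a block, 334 were called higher and 157 lower, and 101 of the 103 named calls held. Arrays with the same number had residuals with a mean correlation of -0.00808 (30 pairs), so no pairing by number was visible in the values.

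Slc18a3 reversed, to 0.219, without the ChAT set. With log2(value + 8), which shrinks differences of dim genes, 14 named calls ended, among them Isl2, Cplx1, Scn1a, Gad2, C1ql2, Calb1, Neurod4 and Tcf4. With all 78 arrays 14 ended, among them Rpl29, Clu and Apoe.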
